A study of Mus musculus with 6 samples.

Results

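The clustered histone genes are the members of the Hist1, Hist2, Hist3 and Hist4 gene clusters, and their RNA was examined here in mouse soleus, a slow calf muscle. They were chosen by name alone: an array feature counted when the platform annotation gave it exactly 1 gene symbol and that symbol began with Hist1h, Hist2h, Hist3h or Hist4h. This gave 29 features among the 30604 with 1 symbol and the 65956 with a value. For each gene the feature of highest mean signal was kept, which left 28 genes: 5 of class H1, 9 of H2A, 9 of H2B, 3 of H3 and 2 of H4. A further 35 features carry the symbols of several clustered histone genes at once and are described beside the members, because many of these genes are near copies and cannot be told apart there. The symbols are older ones. The gene H2ac20, formerly Hist2h2ac, is listed under its new name and so falls outside the rule.

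Control mice were labelled wild type and were littermates of the knockout mice according to the title of the study. The cKO mice carried a DMP1 Cre transgene and a knockout of Mbtps1, which encodes the site-1 protease that cuts membrane-bound transcription factors. All mice were male and 39 to 41 weeks old, each gave 1 array, and there were 3 Control and 3 cKO arrays. Dmp1 is a gene of osteocytes, the cells embedded in bone. The Mbtps1 allele, the Dmp1 fragment and the strain are not stated in the labels, and where the Cre acted was not tested. The comparison asks how soleus RNA differs between the knockout and its littermates.

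Histones are the proteins around which DNA is wound: H2A, H2B, H3 and H4 form the core of the nucleosome, and H1 binds the linker DNA between cores. Most clustered genes are transcribed in S phase, when new DNA needs packing, and their mRNAs end in a stem-loop bound by Slbp instead of a poly(A) tail, so the set is linked to cell division. Some clustered genes also make polyadenylated transcripts in cells that have left the cycle, as most nuclei of adult muscle have.

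Promoters of the members were taken from RefSeq on build GRCm38.p6, matched by gene identifier, as the 250 bases before the annotated start, 5′ to 3′ on the gene's own strand. Such windows were found for 24 of the 28 members. The windows of Hist2h2aa1 (chr3:96245247-96245496, plus strand) and Hist2h2aa2 (chr3:96240375-96240624, minus strand) are shown because these near-identical H2A genes had the smallest p-values among the H2A members. The capitals mark the longest run of bases that both windows share, 169 bases.
Hist2h2aa1: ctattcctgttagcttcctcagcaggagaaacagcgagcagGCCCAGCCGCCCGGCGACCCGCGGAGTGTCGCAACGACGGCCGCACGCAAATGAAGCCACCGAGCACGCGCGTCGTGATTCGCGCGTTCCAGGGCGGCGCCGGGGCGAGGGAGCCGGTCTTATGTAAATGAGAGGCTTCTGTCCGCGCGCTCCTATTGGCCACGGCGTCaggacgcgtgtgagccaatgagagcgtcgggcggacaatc
Hist2h2aa2: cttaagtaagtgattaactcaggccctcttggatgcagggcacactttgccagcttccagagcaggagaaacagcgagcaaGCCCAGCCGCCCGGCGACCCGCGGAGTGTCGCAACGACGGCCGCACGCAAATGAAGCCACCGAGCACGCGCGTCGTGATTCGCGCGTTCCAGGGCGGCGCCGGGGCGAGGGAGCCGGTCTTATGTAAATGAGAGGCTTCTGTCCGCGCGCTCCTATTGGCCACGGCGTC
Over all 276 pairs of member windows the next longest shared run was 13 bases. The windows of Hist1h1c (chr13:23738557-23738806, plus strand), Hist1h2af (chr13:23533625-23533874, plus strand) and Hist1h2bk (chr13:22035571-22035820, plus strand) show the promoter elements typical of classes H1, H2A and H2B. The first 2 belong to genes well above background in these muscles. In them the capitals mark the CCAAT box on either strand, the H1 box AAACACA in Hist1h1c and the octamer ATTTGCAT in Hist1h2bk.
Hist1h1c: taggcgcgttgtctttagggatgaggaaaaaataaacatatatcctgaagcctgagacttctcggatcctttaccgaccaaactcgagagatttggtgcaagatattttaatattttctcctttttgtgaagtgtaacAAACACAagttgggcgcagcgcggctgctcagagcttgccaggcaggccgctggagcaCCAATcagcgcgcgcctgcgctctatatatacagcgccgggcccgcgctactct
Hist1h2af: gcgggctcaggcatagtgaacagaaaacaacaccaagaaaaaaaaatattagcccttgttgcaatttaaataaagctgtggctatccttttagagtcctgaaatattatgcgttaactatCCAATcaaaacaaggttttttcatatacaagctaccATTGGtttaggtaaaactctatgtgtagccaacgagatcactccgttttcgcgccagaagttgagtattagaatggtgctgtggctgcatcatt
Hist1h2bk: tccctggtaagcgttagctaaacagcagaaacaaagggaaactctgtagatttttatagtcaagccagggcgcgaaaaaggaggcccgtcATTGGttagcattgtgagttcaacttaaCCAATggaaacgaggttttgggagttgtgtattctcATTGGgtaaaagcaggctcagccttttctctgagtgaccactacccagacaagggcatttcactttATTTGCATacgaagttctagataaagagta
Each motif was searched on both strands. CCAAT was in 49 of the 60 clustered histone windows in the table (81.7%), among them all 5 of H1, all 16 of H2A and all 17 of H2B but 3 of 12 of H4, against 33.8% of all 32851 promoter windows. The octamer was in 7 of 17 H2B windows (41.2%) and 5 of 16 H2A windows (31.2%) and in no H1, H3 or H4 window, against 1.6% of all windows. The H1 box was in 4 of 5 H1 windows (80.0%) against 6.25% of all, and TATAAA was in 27 of the 60 (45.0%) against 12.4% of all. For 10 pairs of an H2A and an H2B gene the windows overlapped, so a site there could be counted in both classes. The shares of these 2 classes are therefore not independent. All counts are matches of letters, and binding was not measured.

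Values are signals on a scale read as log2, so a difference of 1 is a 2-fold change. The median signal was 4.13, 4.02 and 4.08 on the Control arrays, in the order of their numbers, and 4.37, 4.03 and 4.0 on the cKO arrays. The array of cKO 1 stood apart: its median was the highest and its limma array weight the lowest (0.254, against 0.589 to 4.01 for the others). Mouse numbers in the labels fell into a low range (Control 1, Control 2 and cKO 1) and a high range (Control 3, cKO 2 and cKO 3), and differences within each range, which rest on 1 or 2 arrays a group, are given where they bear on a result. The targeted gene Mbtps1 gave 7.39, 7.05 and 7.24 in Control and 7.77, 7.44 and 7.11 in cKO soleus. Its groups overlapped, with a difference of 0.21 ± 0.21 (limma SE, unadjusted limma p 0.352), and loss of the gene in muscle was not tested. No feature of the whole array passed an adjusted p of 0.05 with limma (0 of 33334 tested, 0.0%). At an unadjusted p under 0.05, 1232 features were higher in cKO and 269 lower.

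Seen as a set, the clustered histone genes were close to the background of all features. Of the 28 members, 21 were bright enough to be tested, which meant a signal above the array's median on at least 3 arrays. The 7 left out were Hist1h1b, Hist1h1t, Hist1h2ak, Hist1h2ap, Hist1h2bh, Hist1h3g and Hist1h4b; Hist1h2ap lay above the median on 2 arrays and the others on none. Of the 21 tested, 14 had a higher mean in cKO (66.7%), against 65.8% of all features tested. Their median difference, cKO minus Control, was 0.13 log2 units, against 0.074 for all features, and the differences ran from −0.59 to 0.59. After quantile normalization 11 of 21 were higher and the medians were 0.066 for members and −0.0038 for all features; with each array centred on its median the count was again 11. Without cKO 1 the members' median was 0.044 and that of all features −0.016, and without Control 1 they were 0.044 and 0.070. With no filter on dim features the medians were 0.045 over all 28 members and 0.057 over all features. With array weights 15 of 21 members were higher (71.4%) against 52.1% of all features, and the medians were 0.096 and 0.012. The distance of the members from the background thus changed with the setting and, in 2 of these fits, its side.

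Among the members, 2 had an unadjusted limma p under 0.05 with higher means in cKO, both of H2A, where the background was 3.7%. A single member, of H2B, had one with a lower mean, where the background was 0.807%. All 3 cKO arrays lay above all 3 Control arrays for 4 members (background 8.95%) and below them for 2 (background 2.05%). Each of the 21 tested members had an adjusted limma p of 0.999.

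**Figure D1:**
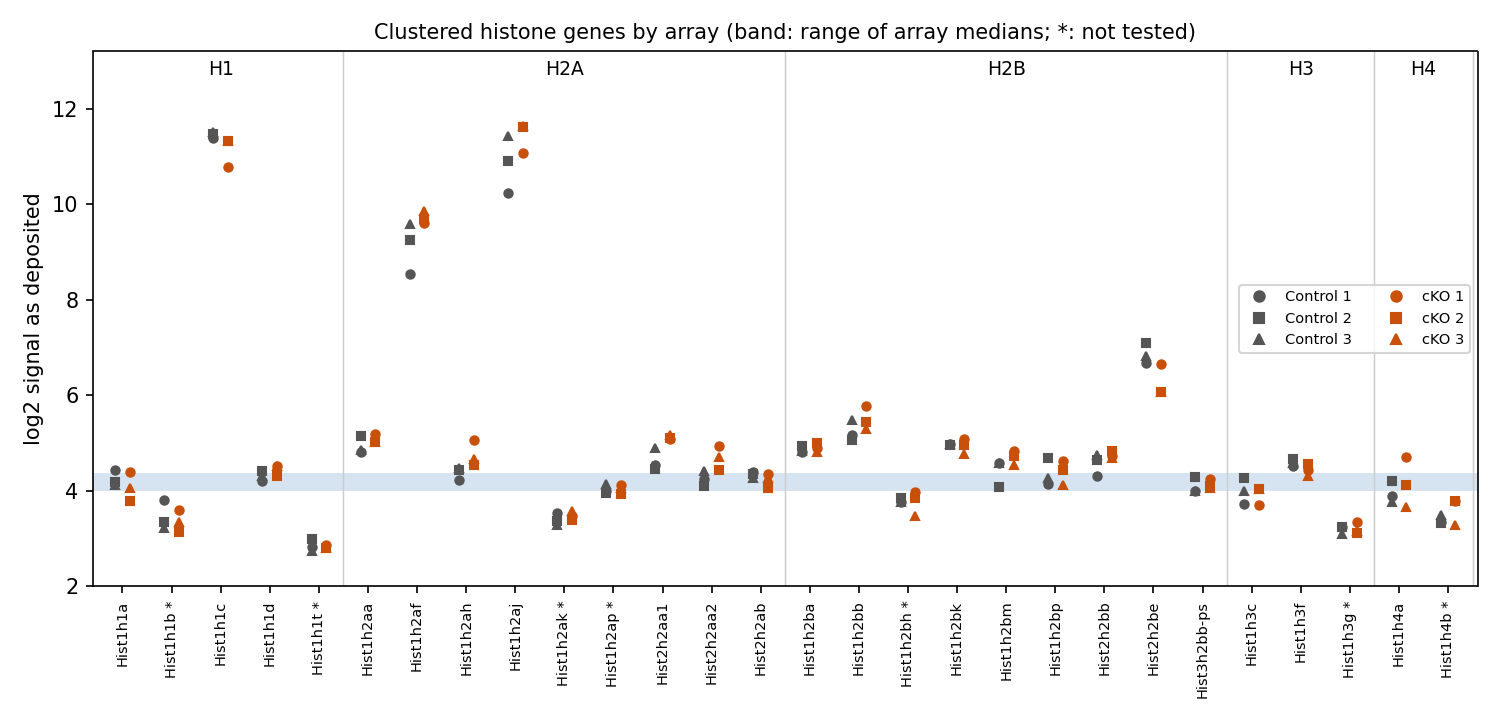
Signal of each of the 28 clustered histone genes on each array (log2 units as deposited), ordered by histone class; grey symbols are Control and orange symbols cKO, and the blue band is the range of the array medians, 4.0 to 4.37. Hist1h1c, Hist1h2af, Hist1h2aj and Hist2h2be stand well above the band on every array, most other members lie near it, and an asterisk marks the 7 genes that were not tested.

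Among the 5 classes, H2A had the largest median difference. H2A is the core histone that pairs with H2B, and 6 of its 7 tested members had higher means in cKO, with a median difference of 0.44 log2 units; the counts were also 6 after quantile normalization and after median centring. Within the low range of mouse numbers the median was 0.59, and within the high range 0.18, where that of all features was 0.26 and −0.040. All 4 members whose cKO arrays lay wholly above the Control arrays were of this class.

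Hist2h2aa1 gave 4.54, 4.45 and 4.90 in the Control mice, numbered 1 to 3, and 5.09, 5.10 and 5.17 in the cKO mice. The cKO arrays were tightly grouped and all above Control, with Control 3 the nearest. The gene was dim, not far above the array medians of 4.0 to 4.37, and above the 75th percentile on no array. The difference was 0.49 ± 0.15 (limma SE), or 1.40-fold, with an unadjusted limma p of 0.0155. It was 0.59 in the low and 0.24 in the high range of mouse numbers. Left without Control 1 or without Control 2, the limma p was 0.0548 and 0.0552.

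Its neighbour Hist2h2aa2 gave 4.24, 4.10 and 4.40 in Control and 4.93, 4.43 and 4.70 in cKO mice. The groups did not overlap, but Control 3 and cKO 2 lay side by side. This gene too was dim, above the 75th percentile on no array. The difference was 0.44 ± 0.17, or 1.36-fold, with an unadjusted limma p of 0.0365. With array weights it was 0.28 with a limma p of 0.0801, and p also passed 0.05 without Control 1 (0.0839), Control 2 (0.113), cKO 1 (0.079) or cKO 3 (0.0841).

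Both genes encode the same H2A protein, and 2 brighter features carry their symbols together. The feature of Hist2h2aa1 and Hist2h2aa2 gave 11.11, 11.07 and 11.23 in Control and 11.82, 11.71 and 11.41 in cKO soleus. All 3 cKO arrays were above all Control arrays, and Control varied little. The difference was 0.51 ± 0.19 with an unadjusted limma p of 0.0356, which was 0.0633 after quantile normalization. That p was 0.0961 with the replicate number as a block and reached 0.11 with an array left out. The feature that adds Hist1h2al to this pair gave 11.17, 11.09 and 11.26 against 11.90, 11.73 and 11.51, a difference of 0.54 ± 0.19 (limma p 0.0281, and 0.0503 after quantile normalization). Here the limma p was 0.0811 with the replicate block and reached 0.0847 with an array left out. Whether these 4 features share probes is not given in the sources used here, so they are not 4 independent measurements.

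Hist1h2af, an H2A gene of the large cluster on chromosome 13, gave 8.53, 9.24 and 9.59 in Control and 9.60, 9.70 and 9.85 in cKO soleus. The cKO arrays were close together while Control spread widely, and Control 3 nearly met cKO 1. The difference was 0.59 ± 0.29 (limma p 0.0849), and it was 0.72 in the low and 0.18 in the high range of mouse numbers. It was 0.30 without Control 1, 0.83 without Control 3 and 0.81 with array weights.
Hist1h2aj, a further H2A gene, gave 10.23, 10.90 and 11.43 in Control and 11.08, 11.62 and 11.63 in cKO soleus. Here the groups overlapped, since Control 3 lay above cKO 1. The difference was 0.59 ± 0.34 (limma p 0.131), and it was 0.51 in the low and 0.20 in the high range of mouse numbers. It was 0.28 without Control 1, 0.88 without Control 3 and 0.96 with array weights.

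Hist1h2ah, which shares a divergent promoter with an H2B gene, gave 4.22, 4.43 and 4.48 in Control and 5.06, 4.53 and 4.67 in cKO soleus. The groups did not overlap, and cKO 1 was the highest. The signal was again dim, above the 75th percentile on no array. The difference was 0.38 ± 0.17 (limma p 0.0669), and it was 0.22 without cKO 1. The remaining tested members were Hist1h2aa, the testis H2A gene, at 0.14, and Hist2h2ab at −0.11. H2ac20, outside the rule, gave 5.39, 5.11 and 5.43 in Control and 5.52, 5.72 and 5.64 in cKO soleus, again without overlap, a difference of 0.32 ± 0.14 (limma p 0.0621).

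Of the 9 H2A features shared by several genes, 8 were tested and 7 had higher means in cKO, with a median difference of 0.25; after quantile normalization 5 of 8 were higher. Of these, 3 had an unadjusted limma p under 0.05 with a higher mean in cKO (background 3.7%), and 4 had cKO values that were all higher than the Control values (background 8.95%). Features of the same genes are not independent, so these counts are a description. The third of those with such a p belongs to 10 genes of the Hist1 cluster and gave 4.66, 4.57 and 4.82 against 5.07, 5.0 and 5.04, so that the groups stood apart (difference 0.35 ± 0.12, limma p 0.0234, and 0.0654 after median centring). Its limma p reached 0.0836 with an array left out. The other features of the same 10 genes did not do the same throughout. The brightest of them gave 9.25, 10.06 and 10.49 in Control and 9.76, 10.51 and 10.58 in cKO soleus, with overlap and a limma p of 0.391.

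The H2B genes, whose products pair with H2A, held the member with the most negative difference. Hist2h2be encodes an H2B variant known from olfactory neurons. It gave 6.67, 7.09 and 6.82 in the Control mice and 6.66, 6.07 and 6.07 in the cKO mice. All cKO arrays were below all Control arrays, although cKO 1 almost equalled Control 1. The difference was −0.59 ± 0.22, Control being 1.51-fold higher, with an unadjusted limma p of 0.031. After quantile normalization it was −0.71 with a limma p of 0.00748. It was −0.22 in the low and −0.75 in the high range of mouse numbers. With the number range as a block the limma p was 0.055, and it was 0.0665 with the replicate number as a block; without Control 2, Control 3, cKO 2 or cKO 3 it was 0.0936, 0.0541, 0.104 and 0.102.

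The other tested H2B members gave small differences. Hist1h2bm was at 0.29 ± 0.18 (limma p 0.153), Hist1h2bb at 0.27 ± 0.19 (limma p 0.19) and Hist2h2bb at 0.17 ± 0.15 (limma p 0.288), all with overlap of the groups. Hist1h2bb ran from 5.05 to 5.47 in Control and from 5.28 to 5.78 in cKO, the highest value being that of cKO 1. In all, 6 of 8 H2B members had higher means in cKO with a median difference of 0.045, but 3 of 8 after quantile normalization and 3 of 8 after median centring, so the class had no direction that held under each scaling.

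H2A and H2B genes of the Hist1 cluster often lie head to head. Among the RefSeq windows, 10 pairs of clustered histone genes on opposite strands had overlapping promoter windows, and each paired an H2A with an H2B gene. For 2 of these pairs both genes were tested members. Hist1h2ah and Hist1h2bk share 177 bases, and their differences were 0.38 and −0.041, the second reaching 0.044 with an array left out. Hist1h2aa and Hist1h2ba, both testis genes, share 220 bases, and their differences were 0.14 and 0.041, the second being −0.038 after quantile normalization and −0.017 after median centring. No test was made of the pairs.

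Of the 9 shared H2B features, 8 were tested and 3 had higher means in cKO, with a median difference of −0.099. The feature of Hist1h2bc, Hist1h2be and Hist1h2bg gave 13.47, 13.75 and 13.60 in Control and 13.04, 13.56 and 13.17 in cKO soleus. cKO 2 lay within the Control range and the other cKO arrays below it, and the difference was −0.35 ± 0.22 (limma p 0.153). None of the 8 had an unadjusted limma p under 0.05.

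The linker histone genes had 3 tested members, of which 1 had a higher mean in cKO. Hist1h1c encodes a linker histone also made outside S phase. It gave 11.38, 11.47 and 11.52 in Control and 10.79, 11.32 and 11.32 in cKO soleus. All cKO arrays were below all Control arrays, cKO 1 by the widest margin. The difference was −0.32 ± 0.22 (limma p 0.19), and it was −0.63 in the low and −0.20 in the high range of mouse numbers. Left without cKO 1, the size of the difference was the smallest of the 6 such fits, −0.14. The other linker genes overlapped between groups: Hist1h1a was at −0.16 ± 0.18 (limma p 0.426) and Hist1h1d at 0.13 ± 0.12 (limma p 0.327). Hist1h1t, the testis linker histone, ran from 2.73 to 2.98 over the 6 arrays, below the array median on each.

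Genes of H3 and H4, the most conserved core histones, gave little that could be read gene by gene. The tested H3 members, Hist1h3c at −0.069 ± 0.18 (limma p 0.72) and Hist1h3f at −0.15 ± 0.12 (limma p 0.274), overlapped between groups. The single tested H4 member, Hist1h4a, gave 3.89, 4.19 and 3.75 in Control and 4.71, 4.12 and 3.65 in cKO soleus. Its highest and lowest values were both from cKO arrays, and the difference of 0.22 ± 0.28 (limma p 0.466) was −0.060 without cKO 1. Of the shared H3 features 3 of 5 tested had higher means in cKO, and of the shared H4 features 2 of 6.

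All 10 shared H4 features carry the same 13 symbols. Control 2 gave the highest value of all arrays on most of them, but they did not all vary alike. One gave 7.58, 9.40 and 7.71 in Control and 7.81, 7.56 and 7.78 in cKO soleus, where Control 2 stood alone above the other 5 arrays (difference −0.51 ± 0.48, limma p 0.323). Another gave 11.20, 11.38 and 10.93 in Control and 11.97, 11.21 and 11.06 in cKO soleus, where cKO 1 was highest (difference 0.25 ± 0.29, limma p 0.43). The spread among Control arrays (SD 1.02) was thus larger than the difference between groups in the first, which turned to 0.073 with an array left out.

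**Figure D2:**
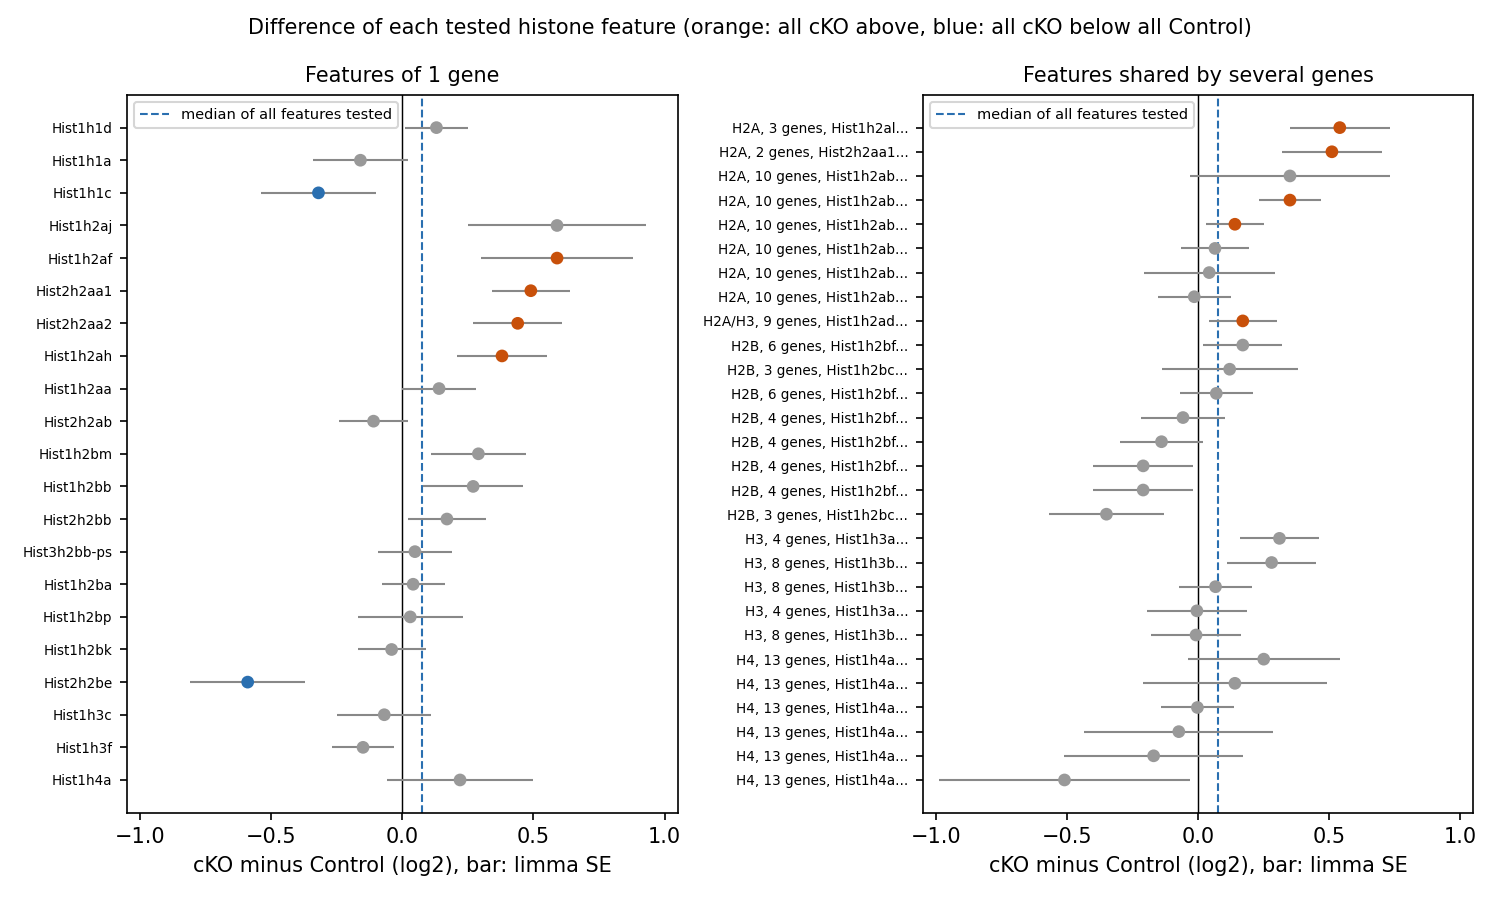
Difference between group means (cKO minus Control, log2 units) for the 21 tested genes (left) and the 28 tested features shared by several clustered histone genes (right), with bars of 1 limma standard error; orange marks features whose cKO values all exceed the Control values, blue those whose cKO values are all lower, and the dashed line is the median of all features, 0.074. H2A features lie mostly right of the line, up to 0.59, and Hist2h2be is farthest left among single genes at −0.59.

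Restricting the view to features above the 75th percentile of every array (5.48 to 5.77) left 4 members and 13 shared features. Not all lay far above that percentile: Hist2h2be gave 6.07 on cKO 2 and cKO 3. This restriction was chosen with the values known and is a description. All 5 bright H2A features had higher means in cKO, and all 5 bright H2B features had lower ones; both held after quantile normalization, after median centring and within each range of mouse numbers. These features are not independent, because some carry the same genes. Hist2h2aa1 and Hist2h2aa2 recur among the H2A ones, and Hist1h2bf, Hist1h2bj, Hist1h2bl and Hist1h2bn among the H2B ones. The margins were narrow in places. The H2B difference nearest to 0 was −0.058, which turned to 0.042 when an array was left out. Within the low range of mouse numbers it was −0.0023. The smallest H2A difference was 0.35, dropped to 0.011 with an array left out and was 0.056 in the high range. Of all features this bright, 65.5% had higher means in cKO. The 2 bright H3 features were higher, 1 of them after quantile normalization, and 1 of the 4 bright H4 features was.

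Relative to the Control mean, the 5 bright H2A features averaged −0.38, 0.027 and 0.35 log2 units on the Control arrays and 0.39, 0.61 and 0.55 on the cKO arrays. Control 3 nearly reached cKO 1, so that the Control arrays differed among themselves by more than the lowest cKO array differed from Control 3. The 5 bright H2B features averaged −0.15, 0.19 and −0.042 in Control and −0.28, −0.21 and −0.36 in cKO arrays. The cKO averages were all below the Control averages, with cKO 2 the nearest to Control 1. Hist2h2be, at −0.79 on cKO 2, carried that gap. The 4 shared bright H2B features alone had mean signals of 9.8, 10.13 and 9.9 in Control and 9.64, 9.87 and 9.69 in cKO arrays. There cKO 2 lay above Control 1, so the groups overlapped.

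**Figure D3:**
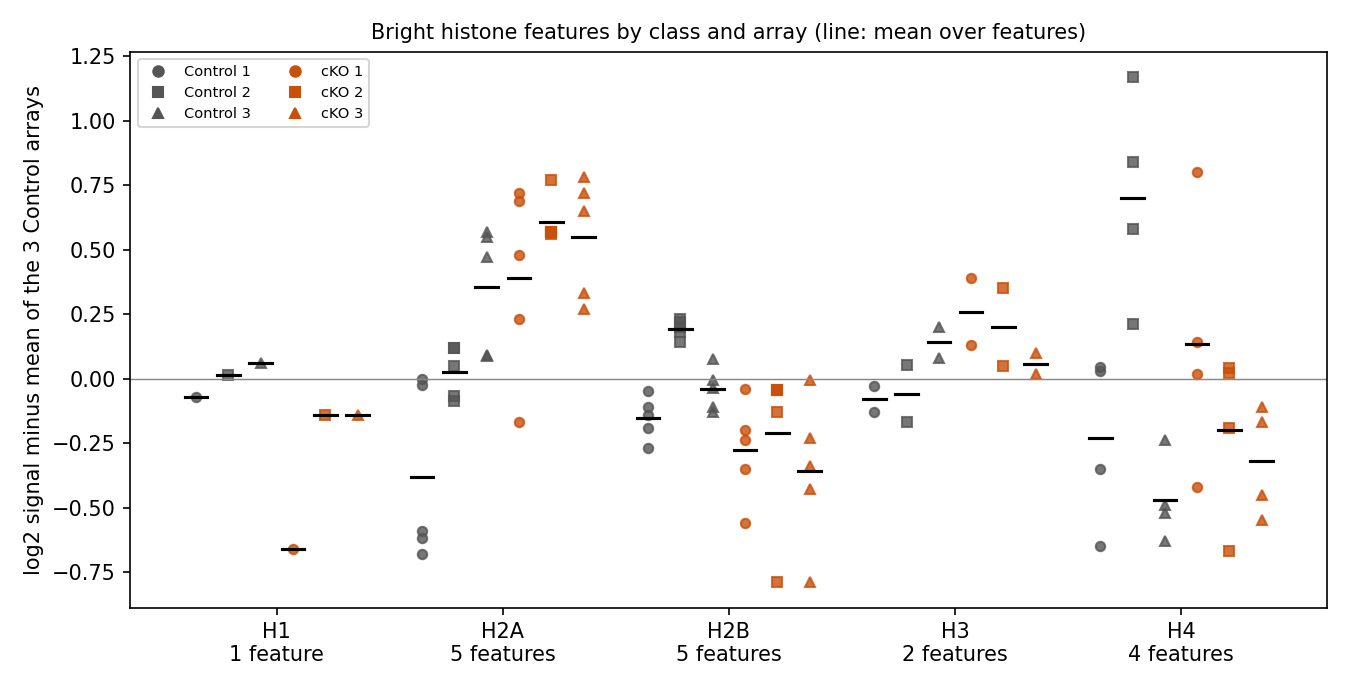
Signal of each bright histone feature on each array minus the mean of the 3 Control arrays (log2 units), by histone class. Points are features, some of them carrying the same genes, bars are means over the features, grey is Control and orange cKO. The H2A bars run from −0.38 to 0.35 in Control and from 0.39 to 0.61 in cKO, the H2B bars from −0.15 to 0.19 and from −0.36 to −0.21, and Control 2 stands highest in H4.

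Genes that act with the clustered histones were then examined. Of the histones made outside S phase, 7 were tested and 5 had higher means in cKO, but 2 did after quantile normalization; none had an unadjusted limma p under 0.05. H2afz, an H2A variant at active promoters, was at −0.27 ± 0.19 (limma p 0.21). H2afx, the H2A variant phosphorylated at DNA breaks, gave 4.47, 4.82 and 4.84 in Control and 5.28, 4.99 and 4.91 in cKO soleus. Its groups did not overlap, and the difference was 0.35 ± 0.16 (limma p 0.0725). H1f0, H3f3a and H3f3b had no feature with a single symbol.

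For the machinery that processes histone mRNA and supplies histones to chromatin, 6 of 13 tested genes had higher means in cKO and the median difference was −0.036. Slbp, which binds the stem-loop, was at −0.036 ± 0.13 (limma p 0.787), and Npat, the coactivator of histone genes, at 0.075 ± 0.18 (limma p 0.687). Casp8ap2 (FLASH), a part of the histone locus body needed for cleaving histone mRNA, gave 7.17, 7.59 and 7.49 in Control and 6.77, 7.08 and 6.98 in cKO soleus. Its cKO arrays were all below Control, with a difference of −0.47 ± 0.18 and an unadjusted limma p of 0.0354, which was 0.0646 after median centring and 0.0814 with array weights. Cpsf3, the nuclease that makes this cut, gave 9.05, 9.16 and 8.91 in Control and 9.59, 9.33 and 9.56 in cKO soleus. Its cKO arrays were all above Control, with a difference of 0.45 ± 0.18 and an unadjusted limma p of 0.0386. That p was 0.0999 after quantile normalization, 0.0721 after median centring and 0.108 with the replicate block. Sympk, the scaffold of the cleavage complex, differed by 0.42 ± 0.17, also without overlap (limma p 0.0473). Its p was 0.111 after quantile normalization, 0.0977 after median centring, 0.084 with the number range as a block and 0.117 with the replicate block. With an array left out, the limma p of Casp8ap2, Cpsf3 and Sympk reached 0.106, 0.112 and 0.143. None of these had an adjusted limma p other than 0.999.

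Genes of DNA replication had a median difference near that of all features. Of 15 tested, 12 had higher means in cKO, against 65.8% of all features, with a median of 0.052 against 0.074. After quantile normalization 6 of 15 had higher means, against 49.1% of all features. Mcm6, a subunit of the replicative helicase, gave 5.41, 5.48 and 5.49 in Control and 5.88, 5.67 and 6.05 in cKO soleus. All cKO arrays were higher, by 0.41 ± 0.14 on average (limma p 0.0266). That p was 0.0687 after quantile normalization, 0.087 after median centring, 0.0516 with the replicate block and 0.0563 with array weights. Rrm2, which makes deoxyribonucleotides in S phase, differed by 0.48 ± 0.17, also without overlap (limma p 0.027). It was 0.86 in the low and 0.17 in the high range of mouse numbers, and its limma p reached 0.0795 with an array left out, as that of Mcm6 reached 0.0966. Pcna, the sliding clamp, was at 0.014 ± 0.21 (limma p 0.951).

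Genes of mitosis were dim. Of 19 with a feature, 8 were tested, 10 lay at or below the median on all arrays, and Top2a, the topoisomerase of dividing cells, was not tested. Of the 8, 7 had higher means in cKO, against 65.8% of all features tested. Their median was 0.16, against 0.074 for all features, and none had an unadjusted limma p under 0.05. Mki67, the usual marker of cycling cells, gave 4.54, 4.62 and 4.59 in Control and 4.87, 4.52 and 4.8 in cKO soleus (difference 0.14 ± 0.13, limma p 0.317). cKO 2 was below every Control array there. Kif20a and Ube2c, which act late in mitosis, were at 0.22 ± 0.13 (limma p 0.132) and 0.21 ± 0.12 (limma p 0.124). The array of cKO 1, with its high median, gave the highest value for all 8 genes. The mean over the 8 was 4.83 on that array, 4.45 and 4.52 on cKO 2 and 3, and 4.52, 4.43 and 4.44 on Control 1 to 3. Cell cycle brakes showed no common direction, with 4 of 9 higher and a median of −0.0052; Cdkn1a, the p53 target that halts the cycle, was at 0.36 ± 0.19 (limma p 0.104) and Ccng1, another p53 target, at −0.29 ± 0.18 (limma p 0.145).

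**Figure D4:**
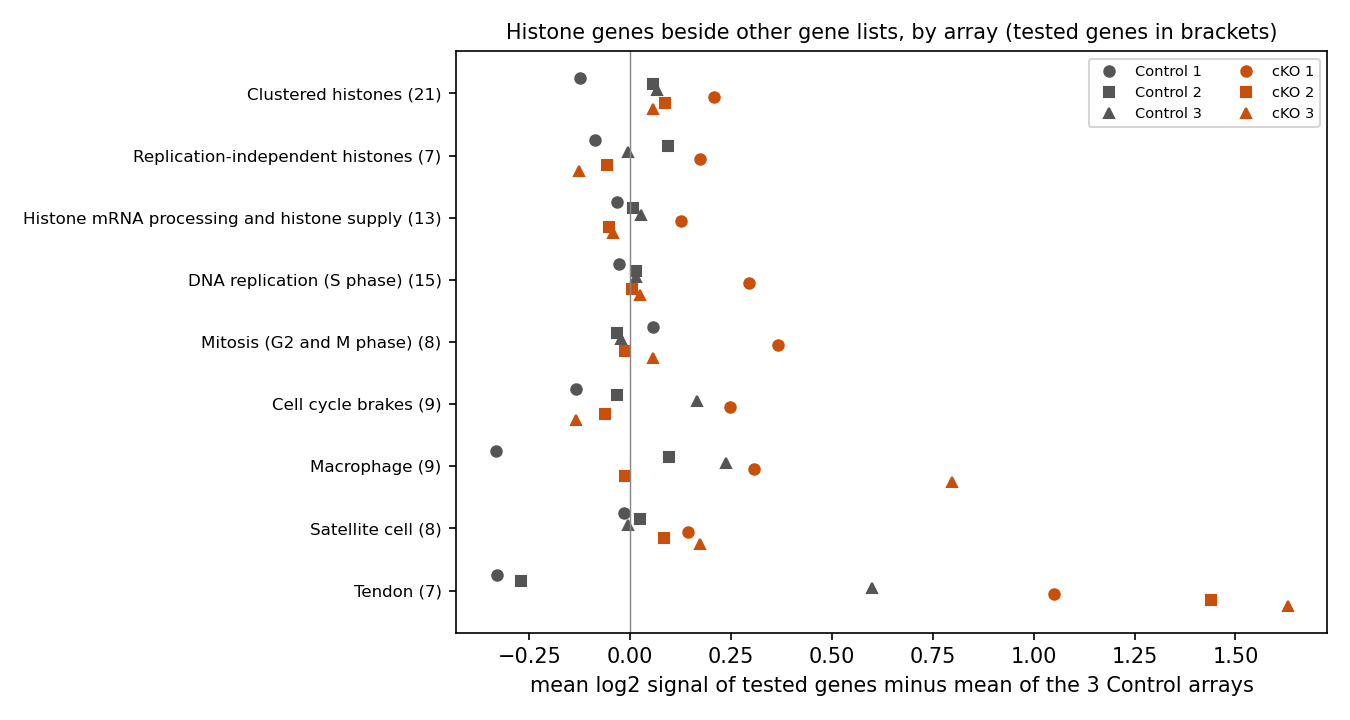
Mean signal of the tested genes of each list on each array minus the mean of the 3 Control arrays (log2 units), with the number of tested genes in brackets; grey is Control and orange cKO. For DNA replication and mitosis the array of cKO 1 stands apart to the right while cKO 2 and cKO 3 lie among or next to Control, and the tendon list has its 3 cKO arrays farthest to the right.

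Markers of other cell types moved with the groups in part, and in whole muscle fewer cells of a type and less RNA per cell cannot be told apart. Tendon genes stood out: 7 of 8 were tested, all 7 had higher means in cKO with a median of 1.39, and their summed level (log2 of the linear sum) ran from 9.88 to 11.50 in Control and from 11.42 to 12.60 in cKO arrays. Angptl7 differed by 2.20 ± 0.35 (limma p 0.000488) and Chad by 1.97 ± 0.36 (limma p 0.00108), and Mkx was not tested. Scx did not follow them, at 0.065 ± 0.15 (limma p 0.685) and −0.025 after quantile normalization. The tendon median was 1.44 in the low and 0.56 in the high range of mouse numbers. Control 3, the highest Control array for Hist2h2aa1, Hist1h2af and Hist1h2aj, also had the highest tendon mean of the Control arrays (6.93, against 6.0 and 6.06). That was not particular to tendon. The same array was the highest of Control for the macrophage mean (6.13, against 5.56 and 5.99). It was so for the mean of all features tested too (6.74, against 6.6 and 6.64), but lowest for the endothelial mean (9.63, against 10.76 and 10.27). A link to the histone values was not tested. All 9 macrophage genes were tested and had higher means in cKO, against 65.8% of all features tested. Their median was 0.32, with summed levels of 8.96 to 9.77 in Control and 9.34 to 10.33 in cKO. It was 0.46 in the low range of mouse numbers and 0.15 in the high range, where 6 of the 9 were higher. Itgam was at 0.38 ± 0.18 (limma p 0.0802) and Cd68 at 0.95 ± 0.48 (limma p 0.0918).

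All 6 endothelial genes had lower means in cKO, with a median of −0.41 and summed levels of 13.43 to 14.76 in Control and 13.71 to 13.90 in cKO. The median was −0.64 in the low and 0.30 in the high range of mouse numbers, so that the direction was not the same in both. Cldn5 was at −0.45 ± 0.19 (limma p 0.0499, and 0.0911 with the number range as a block) and Emcn at −0.68 ± 0.46 (limma p 0.189). Satellite cell genes, which mark the stem cells of muscle, were higher in 5 of 8. Their summed levels ran from 10.43 to 10.71 in Control and from 10.85 to 11.02 in cKO. Itga7 was at 0.69 ± 0.27 (limma p 0.036, and 0.0713 with that block) and Myf5 at 0.31 ± 0.16 (limma p 0.0954). Itga7 and Sdc4 (−0.13 ± 0.38, limma p 0.738) were the brightest of the list, so the sums rest mostly on them. Pax7 was at 0.096 ± 0.11 (limma p 0.424). Fibroblast genes were higher in 2 of 5, with sums of 14.24 to 15.23 and 13.94 to 14.65; Lum was at −0.87 ± 0.41 (limma p 0.077) and Col1a1 at 0.86 ± 0.60 (limma p 0.199).

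Blood cells were faint. Of the lymphocyte genes 1 of 7 was tested (Cd3d, 0.064 ± 0.18, limma p 0.74), of the granulocyte genes 2 of 8 (Camp, −0.13 ± 0.11, limma p 0.256, and S100a9, 0.014 ± 0.15, limma p 0.926) and of the erythroid genes 1 of 2 (Alas2, −0.42 ± 0.30, limma p 0.209). Muscle fibre genes were far above background on every array, with a median difference of 0.017 over 8 genes; Tnni1, the slow troponin I, was at 0.23 ± 0.18 (limma p 0.227) and Tnnt1, the slow troponin T, at 0.094 ± 0.18 (limma p 0.624). The part of tendon, macrophage, endothelial and satellite cell RNA in the histone values was not tested.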

How the data were processed

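Soleus RNA (100 ng of total RNA per array, per the labels' protocols) was hybridised as biotinylated cDNA to Affymetrix arrays, 1 per mouse, with 3 Control and 3 cKO mice. The authors deposited 1 table of array values, read here as log2 signals from their range; how they corrected background, summarised probes and normalized is not given in the sources used here, nor are the software and build. Of 72688 rows, 6732 were empty. Platform symbols, which can be old, named 30604 features with 1 gene and 2146 with several; 33206 stayed unnamed.

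Features brighter than the median of their array on 3 or more arrays (33334) went into a two-sided fit without a block (R 4.3.3, limma 3.58.1, lmFit and eBayes with a trend), and p-values were adjusted over all of them by the Benjamini-Hochberg method. No p was computed over the members as a set. Exact permutation of 3 against 3 arrays cannot go below 0.1. The number of arrays limits the precision. Simulated arrays of 33334 features were used to test the fit, which recovered 28% of 2-fold and 72% of 4-fold changes. The simulated features were drawn independently, with no effect shared across an array, so these shares need not hold for the real arrays. In the data, Angptl7 at 4.59-fold had an adjusted limma p of 0.999. Tables, motif counts and plots used Python 3.11.15, pandas 2.3.3 and matplotlib 3.10.9.

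Members and lists were chosen with earlier results of these data known. Genes named were, per histone class, the 4 tested members with the smallest p and the one with the highest mean, any member at p under 0.05, the 2 smallest p of each companion list, and Slbp, Npat, Mki67, Top2a, Pcna, H2afz, H3f3b, H1f0 and Mbtps1. Hist1h2aa, Hist1h2ba, Hist1h2bk, Hist2h2ab, H2ac20, Sympk, Scx, Pax7, Sdc4 and the shared features were named after their values were seen. So were members and markers given as not tested, such as Hist1h1t and Mkx. Alternatives were other normalizations, filters, variance models, blocks, array weights, each array left out, the mean of a gene's features, and the shared features added. Same-numbered mice are not stated to share a litter or a day.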

Additional observations from a re-analysis of the deposited data

How the results depend on the processing

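The count of members with higher means in cKO (14 of 21) was 2 of 4 with the filter at the 75th percentile and 22 of 31 with shared features added. The count at an unadjusted limma p under 0.05 (3) was 1 of 4 with that filter, 5 with array weights (3 higher, 2 lower), 5 with shared features added (4 higher, 1 lower), and 0 to 4 with an array left out: 0 without Control 2, 1 without Control 1, 1 without cKO 3 and 4 without Control 3. The members' median difference (0.13) was 0.025 when quantile normalization was joined to a block for the mouse number range, an alternative added after seeing the data, where that of all features was 0.00046; with an array left out it was 0.044 to 0.18. Features past an adjusted limma p of 0.05 numbered 0 to 14 with an array left out, 14 without Control 3 (3 higher, 11 lower), and 0 in each of the other fits. Of the 15 histone genes named by the rule 13 kept their direction under the alternatives run. Hist1h3c (−0.069) was 0.11 with array weights, 0.068 without Control 2 and 0.044 without cKO 1, and it ranged from −0.21 to 0.068 with an array left out. Hist1h4a (0.22) was −0.060 without cKO 1, in a range of −0.060 to 0.47. The causes were not tested.

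Same-numbered Control and cKO arrays had deviations from their group means that correlated at 0.13, −0.20 and 0.21, so the numbers were not taken as pairs. With the replicate number as a block, 14 members had higher means, 2 were at an unadjusted limma p under 0.05 (both higher) and the median was 0.13. Most members lie near the array medians, where a signal can be mostly background, and near-identical genes cannot be separated in shared features.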
